A study of Mus musculus with 19 samples.

Results

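The genes followed here are Lyz2, Fcgr3 and Adam8, which are commonly read as genes of monocytes and macrophages. They were chosen by name: every probe whose only gene symbol is Lyz2, Fcgr3 or Adam8 was taken, which gave 6 of the 20205 probes of the array and 3 of its 9834 gene symbols. Lyz2 was read by 2 probes (12258 and 17239, accession NM_017372), Fcgr3 by 3 probes (8389, 10466 and 14041, accession NM_010188) and Adam8 by 1 probe (3203, accession NM_007403). Each gene has a value on all 19 arrays.

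Lyz2 encodes lysozyme M, an enzyme that cuts the peptidoglycan of bacterial cell walls and is stored in granules and secreted. Its RNA is abundant in monocytes, macrophages and granulocytes, so it marks the myeloid lineage rather than monocytes alone. Fcgr3 encodes the ligand-binding chain of a low-affinity receptor for the constant part of immunoglobulin G, which signals through the shared gamma chain encoded by Fcer1g and is carried by myeloid cells, mast cells and natural killer cells. Adam8 encodes a membrane-bound metalloprotease of the ADAM family, first described in macrophages, which cuts the extracellular parts of other surface proteins. In myeloid precursors, genes of this kind are commonly controlled by the transcription factors PU.1 and C/EBP, which bind short motifs near the start of transcription.

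FDCPmix is an established line of mouse blood progenitors, kept in interleukin-3 and able to mature along more than one lineage. The labels also describe the samples as an ES cell line, and their RNA protocol speaks of organs and of pooled control animals, neither of which matches FDCPmix cells. On each 2-colour array the RNA of 1 treated sample (its own RNA) was set against a reference RNA. The groups were FDCPmix cells treated for an unstated time against non-treated FDCPmix cells (4 arrays), and a time course of treated cells read against treated cells at 0 h, with 4 arrays each at 3, 7 and 12 h of tamoxifen and 3 arrays (replicates 1, 3 and 4) at 23 h. Tamoxifen is a ligand of the oestrogen receptor that is widely used to switch on engineered fusion proteins. The sources used here name no transgene, dose, passage or clone, so nothing is known here of what tamoxifen acted on, and the treated and time course groups share no stated reference. Nothing says that arrays of a group came from separate cultures, so p-values measure the spread between these arrays, which may be technical. The time comparisons all use the 0 h reference.

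The 250 bases upstream of each annotated start are shown to let the upstream sequences be compared. They were taken from the RefSeq promoter table for GRCm38.p6, which held all 3 genes (Fcgr3 with 2 windows, of which the first is used), and all lie on the minus strand. Capitals mark each match, on either strand, to a spaced pair of C/EBP half-sites written TTNNGNAA.
Lyz2 (chr10:117282273-117282522): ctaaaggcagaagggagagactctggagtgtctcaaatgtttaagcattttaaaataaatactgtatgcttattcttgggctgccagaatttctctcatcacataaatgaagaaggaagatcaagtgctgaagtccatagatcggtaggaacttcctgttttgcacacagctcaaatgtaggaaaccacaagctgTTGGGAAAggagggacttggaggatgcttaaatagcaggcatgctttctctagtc
Fcgr3 (chr1:171059404-171059653): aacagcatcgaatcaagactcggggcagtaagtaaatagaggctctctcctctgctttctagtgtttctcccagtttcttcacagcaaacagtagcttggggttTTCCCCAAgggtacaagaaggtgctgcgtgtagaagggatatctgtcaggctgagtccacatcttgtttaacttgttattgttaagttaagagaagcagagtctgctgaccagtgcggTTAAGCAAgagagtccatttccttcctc
Adam8 (chr7:139992563-139992812): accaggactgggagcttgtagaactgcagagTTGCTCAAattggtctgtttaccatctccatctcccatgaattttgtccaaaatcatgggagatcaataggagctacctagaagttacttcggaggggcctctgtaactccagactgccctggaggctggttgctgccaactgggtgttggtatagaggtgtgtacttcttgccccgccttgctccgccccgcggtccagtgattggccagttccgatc

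Each of the 3 windows held at least 1 such match, a motif present in 36.9% of 27025 promoter windows of the same length. Counted from the base just before the start as -1, the match lay at -55 to -48 in Lyz2, at -146 to -139 and -28 to -21 in Fcgr3, and at -219 to -212 in Adam8. The core of a PU.1 site, GAGGAA, was found on the opposite strand in Fcgr3 at -6 to -1 and is present in 23.1% of windows. A RUNX motif (TGTGGT, 14.2% of windows) was found in Lyz2 and a MYB motif (AACNGA, 32.3%) in Adam8, each on the opposite strand. The letters of an AP-1 site (TGANTCA, 6.9%) and of a TATA box (TATAAA, 13.0%) were in none of the 3 windows. The shares cover both strands, the matches named do not overlap each other, and a match is a description of the letters only.

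Near copies limit what the probes can tell. Lyz2 lies beside Lyz1, a second lysozyme gene, and the last 100 bases before the start of both genes share 92 bases, against 152 of 250 over the whole windows. That likeness is of the upstream bases only, and no transcript sequences were compared. No probe carries Lyz1 as its only symbol. Fcgr3 lies beside Fcgr4, which has no such probe either, and next but one to Fcgr2b, the inhibitory receptor for the same ligand, which has one. Probe sequences were not used here, so reads of Lyz1 or of other Fc receptors by these probes cannot be told apart from the genes named.

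The values are log ratios, taken as log2, with the deposited signs and each array centred on its median. A value below 0 means less RNA in the treated sample than in the reference if the own RNA is the numerator, which the sources used here do not state. All directions below rest on that reading. The ratios hold no level, so whether the cells express the marker genes of their label at all could not be checked, and fewer cells of a type cannot be told apart from less RNA per cell. The own RNA was in Cy5 on replicates 1 and 2 and in Cy3 on replicates 3 and 4. The SD over all probes was 0.619 to 0.642 on the treated arrays and 0.235 to 0.360 on the others. Doubt attaches to 7 h replicate 4 and to 23 h replicate 3. Over all features, with probes of a gene averaged, 7 h replicate 4 correlated with its group's other arrays at -0.151 to 0.058, and 23 h replicate 3 at -0.149 and -0.078. Other pairs of arrays of a group correlated between -0.145 and 0.321, so the correlations alone do not set these 2 arrays apart. On 7 h replicate 4 the repeated extreme value has the opposite sign (16.291) to that on the other Cy3 arrays. On 23 h replicate 3 it has the same sign (-16.61) as on the Cy3 arrays not in doubt, so this value does not set that array apart. The deposited median of 23 h replicate 3 was 0.233, and it was otherwise doubted only because its values run against its group, so results without it are not independent of that choice. Fitted values are given with all arrays and without these 2 arrays.

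Lyz2 lay below 0 on every time course array except the 2 in doubt, and on those arrays its mean was further from 0 at each later time. At 3 h the gene's log ratio was -0.28, -0.29, -0.25 and -0.097 on replicates 1 to 4, a mean of -0.23 ± 0.09 (SD, n = 4). At 7 h it was -0.38, -0.37 and -0.43 on replicates 1 to 3 and 0.55 on replicate 4. The first 3 arrays lie close together, and the array in doubt stands alone above 0. At 12 h the values were -0.75, -0.63, -0.58 and -0.98, a mean of -0.73 ± 0.18 (SD, n = 4). At 23 h they were -0.95 on replicate 1, 1.08 on replicate 3 and -1.05 on replicate 4. No 12 h value overlaps the 3 h values, but the share of all features with such a gap was not counted. At 23 h the array in doubt is slightly further above 0 than the other arrays are below it. A value below 0 on each array of the group was found for 10.5% of features at 3 h and 7.01% at 12 h. At 7 h it was found for 6.82% of features over 4 arrays and 14.9% over the 3 not in doubt, and at 23 h for 9.42% over 3 arrays and 26.8% over the 2 not in doubt. Over the 13 time course arrays not in doubt, Lyz2 was below 0 on all 13, as were 0.553% of features. Lyz2 was above 0 on both arrays in doubt, so that count and share are not independent of leaving those out.

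With all arrays, no time point passed the threshold for Lyz2. The fitted log ratio was -0.23 at 3 h (adjusted p = 0.745), -0.16 at 7 h (adjusted p = 0.937), -0.73 at 12 h (SE 0.259, adjusted p = 0.689) and -0.36 at 23 h (SE 0.302, adjusted p = 1). All adjusted p-values are from limma's moderated test, Benjamini-Hochberg adjusted over all features. At 12 h Lyz2 ranked 30th lowest of 16089 features, with an unadjusted p of 0.0142. An unadjusted p under 0.05 was reached by 6.25% of features. In these fits 0.0186% of features passed at 12 h and 0% at 3 h, 7 h and 23 h. At an unadjusted p under 0.05, limma gave 10.8% of features at 3 h, 7.04% at 7 h and 3.34% at 23 h.

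Without the 2 arrays in doubt, Lyz2 fell at 12 h and 23 h. The log ratio was -0.73 at 12 h (SE 0.066, adjusted p = 0.00122), a 1.66-fold lower ratio if the base is 2, and -1.002 at 23 h (SE 0.094, adjusted p = 0.000865), a 2.00-fold lower ratio. It was -0.23 at 3 h (SE 0.066, adjusted p = 0.298) and -0.40 at 7 h (SE 0.077, adjusted p = 0.0587), which missed the threshold. In these fits 0.0993% of features passed at 3 h, 0.472% at 7 h, 0.249% at 12 h and 0.368% at 23 h, and 0.0931%, 0.279%, 0.168% and 0.237% passed with a value below 0. In 13 further fits that left out 1 more array in turn, Lyz2 ranged over -0.80 to -0.65 at 12 h and -1.05 to -0.95 at 23 h. All 13 fits lack the 2 arrays in doubt, the only time course arrays with Lyz2 above 0. They therefore cannot test whether leaving those 2 out was right. The 12 h log ratio was the same with all arrays, and only its SE was larger there. With the signs of the same 2 arrays turned instead, Lyz2 also passed at 7 h, with a log ratio of -0.44 (adjusted p = 0.0051), where 1.26% of features passed. The 23 h value without doubt rests on 2 arrays, 1 of each dye.

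The order of the times for Lyz2, from nearest to 0 to furthest, was 3 h, 7 h, 12 h and 23 h without the arrays in doubt. Neighbours in that order did not differ past the threshold: the difference was -0.17 from 3 h to 7 h (95% interval -0.39 to 0.055, adjusted p = 0.613), -0.34 from 7 h to 12 h (-0.56 to -0.11, adjusted p = 0.853) and -0.27 from 12 h to 23 h (-0.52 to -0.015, adjusted p = 0.919). These neighbour comparisons had 0%, 0.00622% and 0.0125% of features past the threshold. The 23 h minus 3 h difference was -0.77 (SE 0.115, adjusted p = 0.0467), just past the threshold, in a comparison in which 0.0749% of features passed. By single probes, probe 12258 passed in that comparison (-0.90, adjusted p = 0.0387) and probe 17239 did not (-0.64, adjusted p = 0.319). That difference was not refitted with a further array left out. One F test over the 4 times gave an adjusted p of 0.118 for Lyz2, the 13th smallest of 15730, and 0.0636% of features passed it. With all arrays the 23 h minus 3 h difference was -0.13 (SE 0.398, adjusted p = 0.977) and the F test gave 0.858.

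The 2 Lyz2 probes read alike over the time course. Their Pearson correlation over the 15 arrays was 0.859, and 0.585 over the 13 arrays not in doubt, with arrays of a time sharing their source. At 12 h probe 12258 read -1.14, -0.93, -0.54 and -0.90 on replicates 1 to 4, and probe 17239 read -0.35, -0.33, -0.61 and -1.06. Each probe was below 0 on all 4 arrays, but probe 17239 was furthest from 0 on the Cy3 arrays and probe 12258 on the Cy5 arrays. Without the arrays in doubt, both probes passed on their own at 12 h (adjusted p = 0.00116 and 0.0372) and at 23 h (0.00108 and 0.0238). At 23 h the log ratios were -1.10 for probe 12258 and -0.90 for probe 17239.

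**Figure D1:**
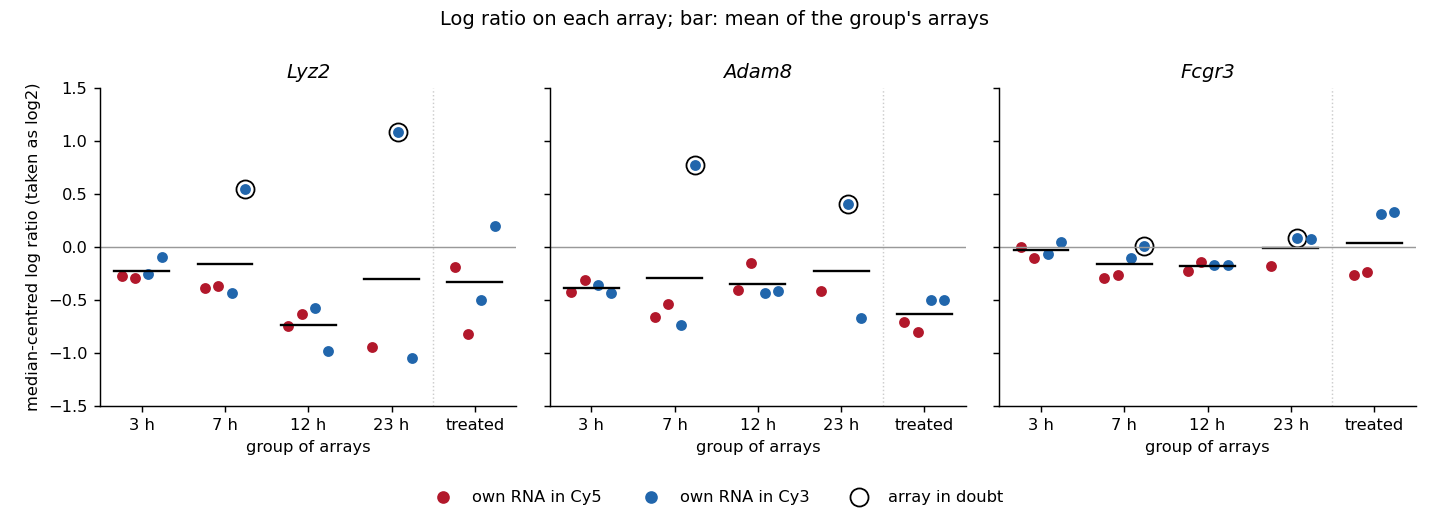
Log ratio of Lyz2, Adam8 and Fcgr3 on each array (vertical axis, median-centred, taken as log2) by group (horizontal axis). Points are arrays, coloured by the dye of the own RNA, bars are group means over all arrays, and rings mark 7 h replicate 4 and 23 h replicate 3. For Lyz2 and Adam8 the ringed arrays lie above 0 while the other time course arrays lie below it; Fcgr3 lies between -0.30 and 0.086 on every time course array.

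Fcgr3 lay between -0.30 and 0.086 on every time course array. At 12 h it was below 0 on all 4 arrays, as were 7.01% of features. The 3 h arrays read -0.002, -0.10, -0.065 and 0.052 on replicates 1 to 4, and the 7 h arrays -0.30, -0.26, -0.10 and 0.01. At 12 h the values were -0.23, -0.15, -0.17 and -0.17, a mean of -0.18 ± 0.034 (SD, n = 4), so that the 12 h arrays lay closest together of the 4 times. At 23 h they were -0.18 on replicate 1, 0.086 on replicate 3 and 0.072 on replicate 4, which fall on both sides of 0. For Fcgr3 the 2 arrays in doubt do not stand apart from their groups as they do for Lyz2.

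The fitted log ratio of Fcgr3 was -0.029 at 3 h (95% interval -0.14 to 0.082), -0.16 at 7 h (-0.27 to -0.051), -0.18 at 12 h (-0.29 to -0.066) and -0.030 at 23 h (-0.16 to 0.10). The adjusted p was 0.843, 0.633, 0.619 and 1 in that order. The unadjusted p was 0.00779 at 7 h and 0.00442 at 12 h. Without the arrays in doubt the values were -0.20 at 7 h (adjusted p = 0.222), -0.18 at 12 h (adjusted p = 0.274) and -0.056 at 23 h (adjusted p = 0.918). Fcgr3 passed the threshold in none of these fits, with all arrays or without the 2.

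The 3 Fcgr3 probes did not move alike, so the gene's mean describes none of them well. Pairwise correlations over the 15 time course arrays were -0.18, 0.077 and -0.112. Probe 14041 read -0.42, -0.44, -0.41 and -0.63 at 12 h, all below 0, while probe 8389 read between -0.067 and 0.004 and probe 10466 between -0.19 and 0.13 on the same arrays. On its own, probe 14041 was at -0.48 at 12 h (SE 0.125, adjusted p = 0.653; SE 0.111 and adjusted p = 0.193 without the arrays in doubt). At 23 h it read -0.32 and 0.44 on the arrays not in doubt, on both sides of 0. Which of the 3 probes reads Fcgr3 best was not tested.

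**Figure D2:**
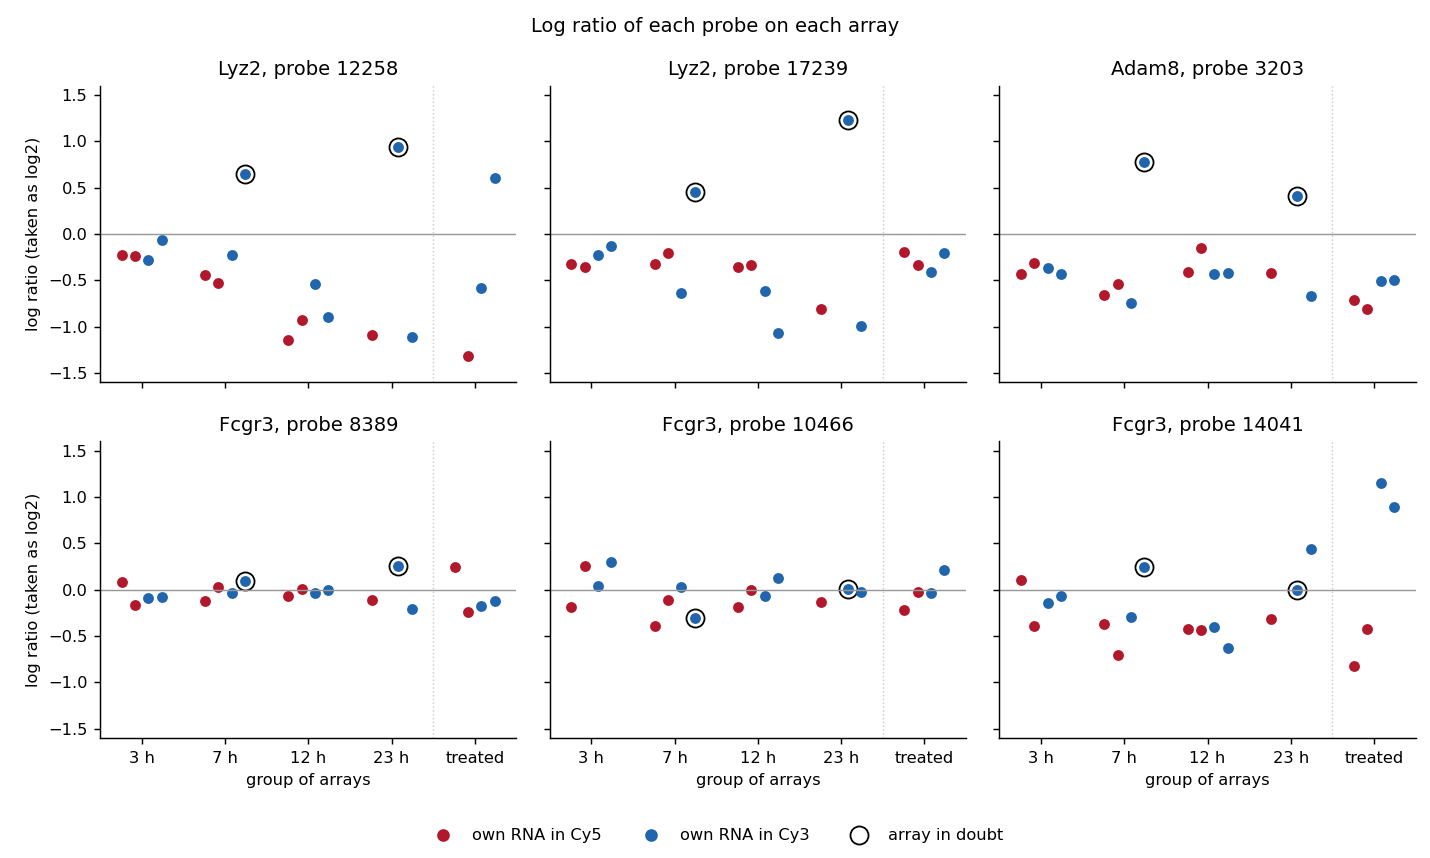
Log ratio of each of the 6 probes on each array, with groups, colours and rings as in the plot of gene values. The Lyz2 probes and the Adam8 probe lie below 0 on the unringed time course arrays; among the Fcgr3 probes, 14041 lies below 0 on all 12 h arrays, and in the treated group it is below 0 on both Cy5 arrays and above 0 on both Cy3 arrays.

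Adam8 was below 0 on each of the 17 arrays not in doubt, the treated group included, as were 0.282% of features. It was above 0 on both arrays in doubt, so that count and share are not independent of leaving those out. At 3 h the single probe of Adam8 read -0.43, -0.31, -0.36 and -0.44 on replicates 1 to 4, a mean of -0.39 ± 0.058 (SD, n = 4). At 7 h it read -0.66, -0.54 and -0.74 on replicates 1 to 3 and 0.77 on replicate 4. The array in doubt is thus above 0 by more than any other array of the group is below it. At 12 h the values were -0.41, -0.15, -0.43 and -0.42, with replicate 2 nearest to 0. At 23 h they were -0.42 on replicate 1, 0.41 on replicate 3 and -0.67 on replicate 4. The 3 h and 12 h values of Adam8 overlap, and among the times all 7 h arrays not in doubt lie below both. The share of all features with such an order was not counted.

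With all arrays Adam8 passed at no time: the log ratio was -0.39 at 3 h (adjusted p = 0.504), -0.29 at 7 h (adjusted p = 0.810), -0.35 at 12 h (adjusted p = 0.864) and -0.25 at 23 h (adjusted p = 1), with SE 0.207 to 0.242. Without the 2 arrays in doubt, Adam8 fell at all 4 times. Its log ratio was -0.39 at 3 h (SE 0.055, adjusted p = 0.0341), -0.67 at 7 h (SE 0.065, adjusted p = 0.00164), -0.35 at 12 h (SE 0.055, adjusted p = 0.0297) and -0.54 at 23 h (SE 0.078, adjusted p = 0.0187). If the base is 2, these are ratios 1.31, 1.59, 1.27 and 1.46 times lower than the reference.

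When 1 more array was left out in turn, Adam8 still passed in 12 of 13 fits at 7 h, in 11 of 13 at 23 h, in 6 of 13 at 12 h and in 5 of 13 at 3 h. The 7 h call was lost without 7 h replicate 3 (adjusted p = 0.0583), and the 23 h call without 23 h replicate 1 (0.0653) or replicate 4 (0.177). The times did not differ past the threshold for Adam8: without the arrays in doubt the difference was -0.28 from 3 h to 7 h (SE 0.085, adjusted p = 0.505), 0.32 from 7 h to 12 h (SE 0.085, adjusted p = 0.724) and -0.19 from 12 h to 23 h (SE 0.096, adjusted p = 0.977). The F test over the 4 times gave an adjusted p of 0.487 for Adam8 and 0.592 for Fcgr3.

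**Figure D3:**
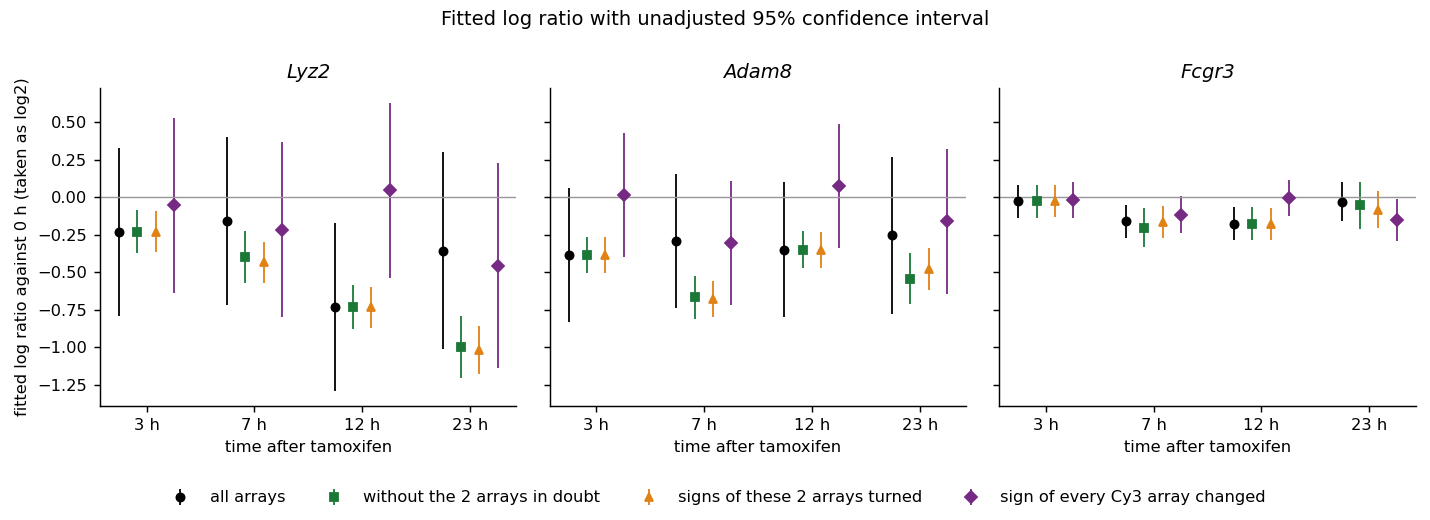
Fitted log ratio against 0 h with its unadjusted 95% interval (vertical axis) by time (horizontal axis), for all arrays, without 7 h replicate 4 and 23 h replicate 3, with the signs of these 2 arrays turned, and with the sign of every array whose own RNA was in Cy3 changed. The intervals of Lyz2 and Adam8 narrow without the 2 arrays, for Lyz2 at 12 h from -1.29 to -0.17 down to -0.88 to -0.59; with the Cy3 signs changed their values lie nearer to 0 at 3 h and 12 h.

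The direction reading matters for Lyz2 and Adam8 in the time course and for Fcgr3 in the treated cells. If the deposited ratios had not been turned so that the own RNA lies on 1 side, the sign of each Cy3 array would have to be changed. Under that reading, with all arrays, Lyz2 was at -0.055, -0.22, 0.045 and -0.46 at 3, 7, 12 and 23 h, and Adam8 at 0.015, -0.31, 0.074 and -0.16. Their adjusted p-values were between 0.775 and 0.993, so no member passed. Fcgr3 stayed below 0 at 3, 7 and 12 h under that reading and turned sign in the treated cells. Without the 2 arrays in doubt the same change put Lyz2 at 0.045 at 12 h and 0.052 at 23 h, so its calls rest on the deposited signs. The 4 arrays of Lyz2 at 12 h, like those of Adam8 at 3 h and 12 h, lie on 1 side of 0 in both dye orientations as deposited. The repeated extreme value of each array, as deposited, was above 0 on every Cy5 array. It was below 0 on every Cy3 array except 7 h replicate 4, for example 16.425 and -16.235 on 3 h replicates 1 and 3. Whether that pattern shows Cy3 arrays already turned was not tested.

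The treated cells without a stated time give a separate reading against non-treated cells. Adam8 read -0.71, -0.81, -0.50 and -0.50 on replicates 1 to 4, a mean of -0.63 ± 0.15 (SD, n = 4). All 4 arrays were below 0, as were 7.59% of features. Lyz2 read -0.19, -0.83, -0.50 and 0.20, on both sides of 0, where replicate 1 rests on probe 17239 alone because probe 12258 had no value. Fcgr3 read -0.26, -0.23, 0.31 and 0.33, below 0 on both Cy5 arrays and above 0 on both Cy3 arrays. That split comes from probe 14041, which read -0.82 and -0.43 on the Cy5 arrays and 1.15 and 0.89 on the Cy3 arrays.

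In the fit of the treated arrays none of the 3 genes passed, and 0% of 15915 features did. The log ratio was -0.63 for Adam8 (SE 0.096, 95% interval -0.90 to -0.36, unadjusted p = 0.00283, adjusted p = 0.798), -0.33 for Lyz2 (SE 0.192, adjusted p = 0.811) and 0.036 for Fcgr3 (SE 0.094, adjusted p = 0.940). At an unadjusted p under 0.05, 982 features (6.17%) passed, Adam8 among them. In a fit of all 19 arrays with 1 shared spread, 758 features passed and Adam8 did not (adjusted p = 0.0695).

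Genes of a wider monocyte list had medians near 0 over the time course. Of 21 measured genes on a list of monocyte and macrophage genes, among them Cd68, Tyrobp and C1qa but none of the 3 genes above, none passed with all arrays in any of the 5 comparisons. At an unadjusted p under 0.05, 4, 1, 3 and 0 of the 21 passed at 3, 7, 12 and 23 h, beside 10.8%, 7.04%, 6.25% and 3.34% of all features, and 3 of 20 in the treated cells, beside 6.17%. The list's median log ratio was 0.026, -0.038, -0.082 and -0.005 at 3, 7, 12 and 23 h with all arrays, and 0.026, -0.043, -0.082 and -0.032 without the arrays in doubt. Medians of all features lay between -0.004 and 0.002 in both fits. In the treated cells the list's median was -0.10, beside 0.009 for all features. There 13 of 20 were below 0, beside 7622 of 15915 features. Without the arrays in doubt, 1 of 21 fell, at 7 h, where 0.472% of all features passed. It was Csf2rb, the shared beta chain of the receptors for interleukin-3, interleukin-5 and GM-CSF, at -0.38 (SE 0.068, adjusted p = 0.0468), against -0.057 with all arrays (adjusted p = 0.970). Its arrays read -0.20, -0.37 and -0.49, with 0.83 on the array in doubt. Lgals3, which encodes galectin-3 and is abundant in macrophages, had the value furthest below 0 of the list in the treated cells, -0.54 (SE 0.158, adjusted p = 0.798). It was at -0.36 at 7 h and -0.32 at 12 h without the arrays in doubt (adjusted p = 0.380 and 0.464) and at -0.19 and -0.32 with all arrays (0.822 and 0.790). Irf8, a transcription factor of monocyte development, was at -0.40 at 23 h with all arrays and at 0.16 without the arrays in doubt, with an adjusted p of 1 and 0.919. Msr1, a scavenger receptor of macrophages, was at 0.11 at 23 h in both fits.

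Fc receptors other than Fcgr3 and signalling proteins of such receptors were measured as a list of 18 genes. None passed at any time or in the treated cells, with or without the arrays in doubt, while at an unadjusted p under 0.05 with all arrays 1, 1, 0 and 0 passed at 3, 7, 12 and 23 h and 3 in the treated cells. At that level the shares of all features were 10.8%, 7.04%, 6.25% and 3.34% at the 4 times and 6.17% in the treated cells. The median was -0.001, -0.026, 0.005 and -0.037 at the 4 times with all arrays, -0.001, -0.043, 0.005 and -0.018 without the arrays in doubt, and -0.024 in the treated cells, with 9 of 18 below 0. Of all features, 7622 of 15915 were below 0 in the treated cells. Fcgr2b, the inhibitory receptor, was at -0.014, -0.11, -0.096 and -0.090 at 3, 7, 12 and 23 h with all arrays (SE 0.065 to 0.076, adjusted p = 0.746 to 1), and at -0.13 and -0.17 at 7 h and 23 h without the arrays in doubt (adjusted p = 0.641 and 0.639). Ptpn6, the phosphatase that inhibitory receptors recruit, was at -0.29 at 23 h without the arrays in doubt (SE 0.067, adjusted p = 0.168) and at -0.14 with all arrays (adjusted p = 1). Pirb, an inhibitory receptor of myeloid cells, was at -0.42 at 23 h without the arrays in doubt (SE 0.083, adjusted p = 0.0885), at -0.16 with all arrays (adjusted p = 1) and at -0.51 in the treated cells (SE 0.118, adjusted p = 0.798). Plcg1, a phospholipase downstream of such receptors, was at -0.14 at 23 h with all arrays and at -0.15 without those in doubt, and Fcgrt, which carries immunoglobulin G through cells, at 0.51 in the treated cells; neither passed (adjusted p = 1, 0.674 and 0.798).

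The other ADAM genes had a median near 0 over the time course. Of 20 measured members of a list of ADAM metalloproteases and their TIMP inhibitors, none passed in any of the 5 comparisons with or without the arrays in doubt, and with all arrays 1, 1, 0 and 0 passed at an unadjusted p under 0.05 at 3, 7, 12 and 23 h and none in the treated cells. The shares of all features at that level, for these genes and the transcription factors below, are those given for the Fc receptors. The list's median was -0.004, 0.002, -0.005 and 0.012 at the 4 times with all arrays, -0.004, -0.009, -0.005 and 0.014 without the arrays in doubt, and -0.065 in the treated cells, with 15 of 20 below 0. Of all features, 7622 of 15915 were below 0 in the treated cells. Adam8 itself passed only in fits that leave out or turn the arrays in doubt, and in no fit of the treated cells. The TIMP inhibitors Timp1 and Timp2 were at 0.28 and -0.32 in the treated cells (adjusted p = 0.807 and 0.798), and Adam29 and Adam32 at 0.16 and -0.11 at 23 h with all arrays (adjusted p = 1 for each) and at 0.17 and -0.15 without those in doubt (0.769 and 0.674). Among 13 transcription factors of the myeloid lineage none passed either, with or without the arrays in doubt, with 1, 0, 0 and 0 at an unadjusted p under 0.05 at the 4 times and 2 in the treated cells with all arrays. Their median was -0.042, 0.011, 0.020 and 0.012 with all arrays, -0.042, -0.005, 0.020 and 0.055 without those in doubt, and -0.11 in the treated cells, with 10 of 13 below 0. The count of all features below 0 in the treated cells is that given for the ADAM genes. Myb, which maintains progenitors, was at -0.21 at 23 h without the arrays in doubt (SE 0.060, adjusted p = 0.263) and at -0.097 with all arrays (adjusted p = 1). Id2, an inhibitor of helix-loop-helix factors, and Nfil3, a basic leucine zipper factor, were at -0.35 and -0.36 in the treated cells (adjusted p = 0.798 for each).

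Most markers of neutrophils, the cell type that shares Lyz2, lay below 0 together with it. At 3, 7, 12 and 23 h, 11, 13, 10 and 10 of 13 were below 0 without the arrays in doubt. Of all features in that fit, 8050 of 16108, 8299 of 16115, 7861 of 16089 and 7936 of 16041 were. With all arrays 11, 10, 10 and 12 of the 13 markers were, beside 8050 of 16108, 8131 of 16087, 7863 of 16089 and 7977 of 16116 features. None of 13 measured neutrophil markers passed with all arrays, while 0, 0, 3 and 0 passed at an unadjusted p under 0.05 at 3, 7, 12 and 23 h and 4 in the treated cells. Of all features, 10.8%, 7.04%, 6.25% and 3.34% did so at these times and 6.17% in the treated cells. Without the arrays in doubt, 0, 3, 5 and 8 of the 13 fell at 3, 7, 12 and 23 h and none rose. Of all features, 0.0931%, 0.279%, 0.168% and 0.237% fell at these times in that fit. The list's median in that fit was -0.12, -0.25, -0.35 and -0.71, and with all arrays it was -0.12, -0.12, -0.35 and -0.32, so that the 7 h and 23 h medians move over 2-fold with the 2 arrays. Medians of all features lay between -0.004 and 0.002 in both fits. At 23 h the 8 were Ltf at -1.26, Camp at -1.20, Mmp8 at -1.11, Ngp at -1.10, Elane at -0.94, Mpo at -0.91, S100a9 at -0.71 and Lcn2 at -0.50 (adjusted p = 0.000547 to 0.0412). With all arrays the same 8 were at -0.56, -0.46, -0.39, -0.38, -0.32, -0.34, -0.30 and -0.17 in that order, each with an adjusted p of 1. These encode granule proteins: lactoferrin, the cathelicidin, a collagenase, neutrophilic granule protein, neutrophil elastase and myeloperoxidase, with the calcium-binding S100a9 and the iron-carrying lipocalin 2. The log ratio of Lyz2 at 23 h lies within their range in each fit, at -1.002 and -0.36. The list's median on single arrays was -0.78 and -0.91 on 23 h replicates 1 and 4, 0.58 on replicate 3 and 0.40 on 7 h replicate 4, so both arrays in doubt stand apart for this list as they do for Lyz2. In the treated cells the median was -0.22, with 10 of 13 below 0, beside 7622 of 15915 features.

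A list of lysozymes and antimicrobial secretory proteins shares several of these genes. Of its 14 measured members none passed with all arrays (1, 1, 3 and 0 at an unadjusted p under 0.05 at the 4 times and 1 in the treated cells), and without the arrays in doubt 0, 1, 2 and 5 fell at the 4 times (Camp at 7 h, Camp and Ngp at 12 h, and Camp, Lcn2, Ltf, Mpo and Ngp at 23 h). Each of these is also a neutrophil marker. The shares of all features are those given for the neutrophil markers. The list's median was -0.13, -0.13, -0.21 and 0.041 with all arrays, -0.13, -0.24, -0.21 and -0.17 without those in doubt, and -0.027 in the treated cells. Epx, the peroxidase of eosinophils and a member of the list, was at 0.30 at 7 h and -0.26 at 23 h without the arrays in doubt (adjusted p = 0.372 and 0.649) and at 0.28 and -0.16 with all arrays (0.637 and 1). Of the markers of other lineages, Mcpt8, a protease of basophils, fell at 12 h without the arrays in doubt, at -0.61 (SE 0.097, adjusted p = 0.0325; 0.619 with all arrays), 1 of 6 measured mast cell and basophil markers. None of 7 erythroid, 6 megakaryocyte, 10 lymphoid and 13 osteoblast and fibroblast markers passed in any comparison, with or without the arrays in doubt. At an unadjusted p under 0.05 with all arrays, at most 3 of such a list passed, beside 3.34% to 10.8% of all features. The part of neutrophil markers in the Lyz2 values was not tested.

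**Figure D4:**
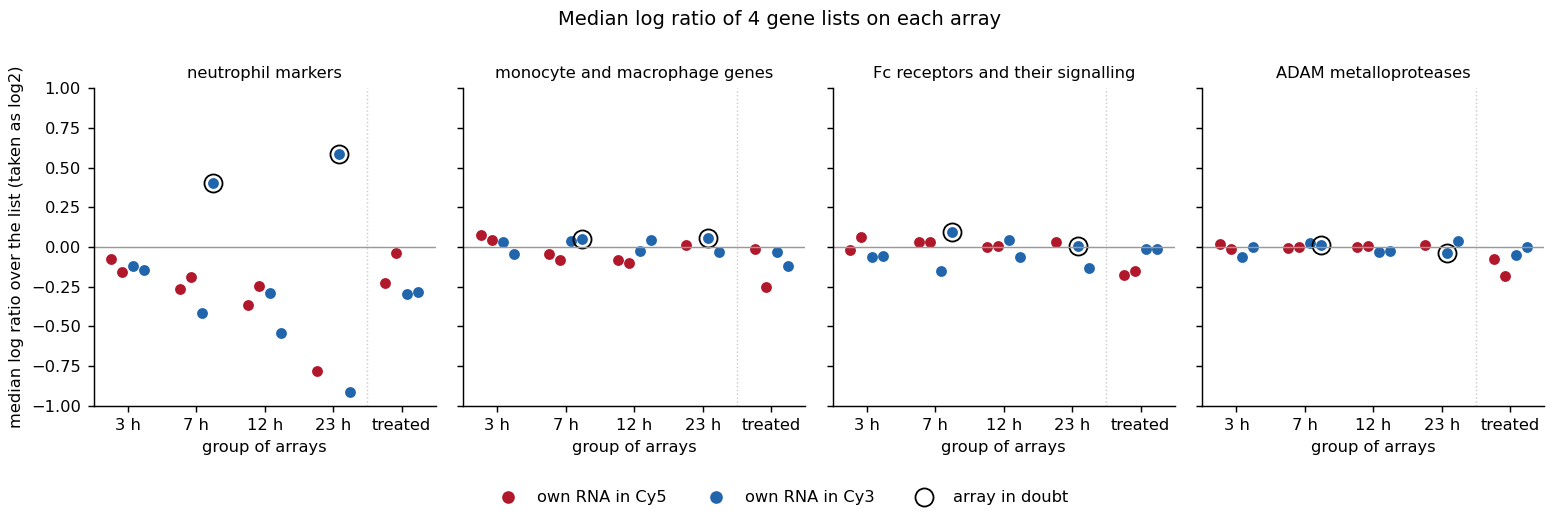
Median log ratio of 4 gene lists on each array (vertical axis, taken as log2) by group (horizontal axis), with colours and rings as in the plot of gene values. The neutrophil medians lie at -0.78 and -0.91 on the unringed 23 h arrays, while the medians of the monocyte list lie between -0.098 and 0.076 on all time course arrays.

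The genes most like each of the 3 were found by Pearson correlation over the 15 time course arrays, among 9599 genes with a value on all of them and with the dye term removed. These correlations are descriptions, since arrays of a time share their source. For Lyz2 they were Mmp8 (r = 0.979), Ccl6 (0.966), Ngp (0.963), Prickle3 (0.954) and Elane (0.952), which were also the first 5 over the 13 arrays not in doubt. Mmp8 read -0.95 and -1.26 on 23 h replicates 1 and 4, beside -0.95 and -1.05 for Lyz2. Ccl6, a chemokine of myeloid cells, fell at 12 h and 23 h without the arrays in doubt (-0.54 and -0.80, adjusted p = 0.0139 and 0.00928), and was at -0.54 and -0.39 with all arrays (0.689 and 1).

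For Adam8 the nearest genes were others: Ier3 (r = 0.968), Mt1 (0.945), Tbc1d8 (0.916), Serpinb1a (0.914) and H2bu2 (0.908), which ranked 1, 9, 5, 12 and 2 over the 13 arrays. Ier3, an immediate early gene, fell at all 4 times without the arrays in doubt, at -0.61, -0.73, -0.52 and -0.62 (adjusted p = 0.0032 to 0.0197), and was at -0.61, -0.34, -0.52 and -0.28 with all arrays (0.426 to 1). Mt1, which encodes a metallothionein that binds zinc, did so too, at -0.71, -0.71, -0.53 and -0.63 (adjusted p = 0.00194 to 0.0197), and was at -0.71, -0.26, -0.53 and -0.26 with all arrays (0.426 to 1). Like Adam8, both were low on each of the 3 h arrays, Ier3 between -0.71 and -0.54 and Mt1 between -0.97 and -0.57. For Fcgr3 the nearest were Moap1 (r = 0.862), Slc36a4 (0.85), Isca1 (0.804), Rtel1 (0.787) and Ugdh (0.76), none of which passed at any time.

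The 3 genes were only loosely alike among themselves. The correlation of Lyz2 with Adam8 was 0.737 over the 15 arrays and 0.363 over the 13 not in doubt, that of Lyz2 with Fcgr3 0.424 and 0.212, and that of Fcgr3 with Adam8 0.366 and 0.185. Much of the likeness of Lyz2 and Adam8 thus rests on 7 h replicate 4 and 23 h replicate 3.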

How the data were processed

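RNA was compared on 19 2-colour arrays of FDCPmix cells. The authors deposited 1 log ratio per probe and array, taken here as log2; their numerator, base, background correction and normalization were stated in no source used here, and no spot intensities were used. On each array 1 value of size above 10 was repeated on 8 to 29 spots; it was set to missing. Arrays were centred on their medians, which leaves 19629 to 20147 probes with a value. Of 20205 probes, 13891 carry 1 gene symbol, 5 several and 6309 none; probes of a symbol were averaged and the others kept single, giving 16148 features. No 2 arrays shared over 0.289% of equal values.

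Groups came from the labels. Each time was tested against 0, and times against each other, with limma 3.58.1 in R 4.3.3 (lmFit and eBayes) with a dye term over the 15 time course arrays; the 4 treated arrays were fitted apart. P-values were Benjamini-Hochberg adjusted over all features, with 0.05 as the threshold, and intervals are 95% and unadjusted. A feature was tested in groups of 4 with values on 3 arrays and in smaller groups with values on 2. The steps were tested on simulated data. Alternatives covered centring, scaling, extremes, dye and block terms, array weights, missing values, single probes, signs and left-out arrays.

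The 3 genes and all gene lists were chosen with earlier results of these data known. Named genes are the 3, list members past the threshold, the 2 of smallest p at 23 h and in treated cells in 5 lists, and the 5 most correlated genes of each; the first rule was extended, after the values were seen, to calls without the 2 arrays in doubt, and Fcgr2b and Cd68, Tyrobp and C1qa were named by hand.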

Additional observations from a re-analysis of the deposited data

Results flagged for a closer look

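In 6 of 35 groups of 4 arrays examined, over genes and probes, 1 array stood apart from the other 3; chance gives about 1 in 20 groups, and Adam8 counts for its gene and its single probe alike. On 7 h replicate 4, an array in doubt, Lyz2 read 0.552, while its group's other arrays lay between -0.43 and -0.37. On the same array Adam8, and so probe 3203, read 0.773, while the others lay between -0.74 and -0.54. On 12 h replicate 2 Adam8 and probe 3203 read -0.147, the value nearest to 0 in a group whose other arrays lay between -0.43 and -0.41. Fcgr3 probe 14041 read -0.633 on 12 h replicate 4, below the -0.44 to -0.41 of the other 12 h arrays.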

How the results depend on the processing

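With all arrays, no alternative that kept the deposited signs and both arrays in doubt brought a call of Lyz2, Fcgr3 or Adam8, nor did leaving out any single array. The calls of Lyz2 and Adam8 appear only when 7 h replicate 4 and 23 h replicate 3 are left out together or their signs are turned, and they are absent again when every Cy3 array is changed in sign. Beyond the values already in the report, the following changed direction or side of the threshold; the comparison stands after each value, a time alone is against 0 h, and the cause was not tested. Without the 2 arrays in doubt, Lyz2 was at -0.73 (12 h), -0.27 (23 h minus 12 h), -0.77 (23 h minus 3 h), -1.002 (23 h) and -0.17 (7 h minus 3 h). In that fit, Adam8 was at 0.32 (12 h minus 7 h), -0.35 (12 h), -0.19 (23 h minus 12 h), -0.16 (23 h minus 3 h), -0.54 (23 h), -0.39 (3 h), -0.28 (7 h minus 3 h) and -0.67 (7 h). There, Fcgr3 was at 0.026 (12 h minus 7 h). There, the number of features called was 1 (12 h minus 7 h), 40 (12 h), 2 (23 h minus 12 h), 12 (23 h minus 3 h), 59 (23 h), 16 (3 h), 76 (7 h) and 10 (F value over the 4 times). With the signs of the 2 arrays in doubt turned, Lyz2 was at -0.73 (12 h), -0.29 (23 h minus 12 h), -0.79 (23 h minus 3 h), -1.02 (23 h), -0.21 (7 h minus 3 h), -0.44 (7 h) and 25.4 (F value over the 4 times). There, Adam8 was at 0.33 (12 h minus 7 h), -0.35 (12 h), -0.13 (23 h minus 12 h), -0.094 (23 h minus 3 h), -0.48 (23 h), -0.39 (3 h), -0.29 (7 h minus 3 h) and -0.68 (7 h). There, the number of features called was 2 (12 h minus 7 h), 60 (12 h), 3 (23 h minus 12 h), 20 (23 h minus 3 h), 128 (23 h), 28 (3 h), 4 (7 h minus 3 h), 202 (7 h) and 17 (F value over the 4 times). With every Cy3 array changed in sign, Lyz2 was at 0.26 (12 h minus 7 h), 0.045 (12 h), -0.50 (23 h minus 12 h) and -0.16 (7 h minus 3 h). There, Adam8 was at 0.38 (12 h minus 7 h), 0.074 (12 h), -0.24 (23 h minus 12 h), -0.18 (23 h minus 3 h), 0.015 (3 h) and -0.32 (7 h minus 3 h). There, Fcgr3 was at 0.11 (12 h minus 7 h), -0.14 (23 h minus 12 h) and -0.29 (treated). There, the number of features called was 1 (12 h minus 7 h) and 1 (23 h minus 12 h). Without the 2 arrays in doubt and with every Cy3 array changed in sign, an alternative chosen after seeing the data, Lyz2 was at 0.045 (12 h), 0.11 (23 h minus 3 h), 0.052 (23 h) and 0.075 (7 h). In that fit, Adam8 was at 0.073 (12 h minus 7 h), 0.074 (12 h), 0.13 (23 h), 0.015 (3 h) and -0.014 (7 h minus 3 h). There, Fcgr3 was at 0.11 (12 h minus 7 h), -0.12 (23 h minus 12 h) and -0.29 (treated). There, the number of features called was 1 (12 h minus 7 h), 2 (3 h) and 4 (7 h). With a value required on every array of the group, the number of features called was 0 (12 h). With all 19 arrays in one fit, the number of features called was 758 (treated). With array weights, Lyz2 was at -0.003 (7 h minus 3 h). There, Adam8 was at 0.17 (12 h minus 7 h), -0.057 (23 h minus 12 h) and -0.03 (7 h minus 3 h). There, Fcgr3 was at 0.044 (12 h minus 7 h). There, the number of features called was 14 (12 h). With the deposited values not centred, Fcgr3 was at 0.073 (23 h minus 3 h) and 0.044 (23 h). With no dye term, Fcgr3 was at 0.021 (23 h minus 3 h). With no filter on missing values, the number of features called was 7 (12 h minus 7 h), 12 (12 h) and 3 (23 h minus 12 h). From probe 10466 alone, Fcgr3 was at 0.16 (12 h minus 7 h), -0.037 (23 h minus 12 h), 0.10 (3 h) and -0.015 (treated). From probe 14041 alone, Fcgr3 was at 0.13 (23 h minus 3 h) and 0.005 (23 h). From probe 17239 alone, Lyz2 was at 0.047 (23 h minus 3 h). From probe 8389 alone, Fcgr3 was at 0.036 (23 h minus 3 h), 0.052 (7 h minus 3 h) and -0.075 (treated). With quantile normalization between arrays, Fcgr3 was at 0.001 (23 h minus 3 h). There, the number of features called was 2 (12 h minus 7 h). With the repeated extreme values kept, the number of features called was 0 (12 h). Each single array was also left out in turn, from all arrays in every comparison, and from the arrays not in doubt only for each time against 0 h. Over both sets of fits, Lyz2 ranged over -0.83 to -0.59 (12 h), -1.05 to 0.066 (23 h) and -0.41 to -0.004 (7 h). Over the fits from all arrays, Lyz2 ranged over -0.27 to 0.80 (23 h minus 12 h), -0.77 to 0.30 (23 h minus 3 h) and -0.13 to 0.23 (7 h minus 3 h). Over both sets of fits, Adam8 ranged over -0.46 to -0.29 (12 h), -0.62 to -0.003 (23 h), -0.44 to -0.34 (3 h) and -0.70 to -0.096 (7 h). Over the fits from all arrays, Adam8 ranged over -0.26 to 0.30 (12 h minus 7 h), -0.19 to 0.35 (23 h minus 12 h), -0.16 to 0.38 (23 h minus 3 h) and -0.27 to 0.29 (7 h minus 3 h). Over both sets of fits, Fcgr3 ranged over -0.15 to 0.038 (23 h) and -0.063 to 0.007 (3 h). Over the fits from all arrays, Fcgr3 ranged over -0.051 to 0.024 (12 h minus 7 h) and -0.041 to 0.059 (23 h minus 3 h). Over both sets of fits, the number of features called ranged over 0 to 58 (12 h), 0 to 68 (23 h), 0 to 21 (3 h) and 0 to 73 (7 h). Over the fits from all arrays, the number of features called ranged over 0 to 8 (12 h minus 7 h), 0 to 6 (23 h minus 12 h), 0 to 3 (23 h minus 3 h), 0 to 1 (7 h minus 3 h) and 0 to 3 (F value over the 4 times).

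The replicate numbers paired the arrays weakly at most. Deviations of same-numbered arrays correlated at 0.029 on average, above 0.1 in 4 of 36 pairs. Those of differently numbered arrays correlated at -0.01 on average, above 0.1 in 4 of 108 pairs. With the replicate number as a block in place of the dye term no call changed, and among the 3 genes only Fcgr3 turned sign, at 0.005 for 23 h minus 3 h. Where a time was left with 1 array, that array was assumed to vary like the other groups. The number of arrays, 2 to 4 in a group, limits the precision, and the ratios hold no signal over background.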
